A study of Mus musculus with 9 samples.

Results

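The complement genes described here are C7, C1qa, C1qb, C1qc, C3, C4b, C1s1, C1ra and Serping1, 9 of the 14300 protein-coding genes listed in both deposited tables. C7 was chosen by its measured level, which was higher in the ORX+DHT libraries than in the controls, and the other 8 are genes of the early complement pathway that were set beside it. RNA was sequenced from tibialis anterior, a fast muscle of the lower leg, of male C57BL/6J mice at 4 weeks after treatment. There were 3 groups of 3 libraries each. Control mice have columns named sham in the tables, ORX mice had their testes removed, and ORX+DHT mice also received the strong androgen dihydrotestosterone (DHT) after that operation. The labels call the libraries biological replicates and name no transgene. The age of the mice, the dose and route of the androgen, and whether a library is 1 animal are not given in the sources used here.

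Complement is a cascade of plasma proteins that tags and lyses microbes and damaged cells. In its classical pathway C1q, built of A, B and C chains, binds a target and activates the proteases C1r and C1s. These cleave C4 and C2 to form an enzyme that cleaves C3, the protein on which all complement pathways meet. C7 acts at the far end, where C5b, C6, C7, C8 and C9 join into the membrane attack complex, and Serping1 encodes the C1 inhibitor that stops C1r and C1s. The liver makes most circulating complement, while tissue macrophages are the main source of C1q and fibroblasts make several of the other components.

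In GENCODE release M21 (GRCm38), C7 (ENSMUSG00000079105) lies on the minus strand at chr15:4988762-5063740. The 3 C1q chain genes are neighbours on chromosome 4, with 3616 bases between C1qb (ENSMUSG00000036905, chr4:136880129-136886187) and C1qc (ENSMUSG00000036896) and 2851 bases between C1qc and C1qa (ENSMUSG00000036887). C1ra (ENSMUSG00000055172, chr6:124512405-124523443) and C1s1 (ENSMUSG00000038521, chr6:124530345-124542359) lie 6901 bases apart on opposite strands. C3 (ENSMUSG00000024164, chr17:57203970-57228136) and C4b (ENSMUSG00000073418, chr17:34728380-34743882) are both on chromosome 17, and Serping1 (ENSMUSG00000023224, chr2:84765387-84775444) is on chromosome 2. Mouse C4b, C1ra and C1s1 each have a close relative in the genome (C4a, C1rb and C1s2), so reads can be split between copies and the values of these 3 genes are uncertain.

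RefSeq start-site sequences (GRCm38.p6) were matched for 6 of the 9 genes. The 250 bases upstream of the start are shown for C7, the gene with the highest level under the androgen relative to both other groups, for C3, and for C1qb, in whose window the element described next was found. They are chr15:5063774-5064023, chr17:57228137-57228386 and chr4:136886201-136886450, all on the minus strand and written 5′ to 3′. Capitals mark TGTTCT or its complement AGAACA, the core element bound by the androgen receptor and by other steroid receptors.
C7: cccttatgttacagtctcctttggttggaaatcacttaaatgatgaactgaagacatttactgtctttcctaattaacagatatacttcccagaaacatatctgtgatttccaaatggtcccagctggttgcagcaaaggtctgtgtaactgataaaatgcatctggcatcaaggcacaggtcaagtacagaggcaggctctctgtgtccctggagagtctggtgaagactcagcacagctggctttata
C3: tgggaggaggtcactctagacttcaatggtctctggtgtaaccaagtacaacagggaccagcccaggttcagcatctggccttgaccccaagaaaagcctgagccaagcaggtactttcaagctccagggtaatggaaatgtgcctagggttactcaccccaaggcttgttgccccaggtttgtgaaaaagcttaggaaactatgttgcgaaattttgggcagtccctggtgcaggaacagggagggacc
C1qb: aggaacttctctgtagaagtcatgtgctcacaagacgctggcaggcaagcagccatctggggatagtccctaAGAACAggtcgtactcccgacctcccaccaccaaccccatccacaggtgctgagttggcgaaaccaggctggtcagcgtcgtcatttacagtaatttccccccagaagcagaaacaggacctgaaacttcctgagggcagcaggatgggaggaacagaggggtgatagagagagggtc
The element was searched on both strands and was present in 16.1% of 32851 upstream windows of this length. It was found in the windows of C1qb (first base at position -178 from the start), C1qc and C1s1, and these letters are not in the windows of C7, C3 and C1ra. The palindrome of AGAACA, any 3 bases and TGTTCT was in 0.00913% of all windows and in none of these 6 genes. A match is a description of the letters and not a bound site.

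Libraries held 1340209 to 1682235 reads over the listed genes. The 3 pairs of ORX and the 3 pairs of ORX+DHT libraries had Pearson's r of 0.966 to 0.973 on the log2 scale across 8631 genes, which are not independent replicates. Control replicate 1 stood apart from the other controls (r 0.928 and 0.929, against 0.968 between controls 2 and 3), and results that rest on it are given with and without it. The 7 muscle fibre markers summed to between 199388 and 291964 normalised counts in every library. None of the 4 hepatocyte markers (Alb, Apoa1, Ttr and Serpina1a) had an entry in the joined table. Values below are normalised counts, reads divided by a scaling factor per library and set on a scale common to all 9 libraries.

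C7 stood at 3.75, 4.42 and 0 normalised counts in control replicates 1, 2 and 3, and at 0.982, 0.853 and 0.827 in the ORX replicates. In ORX+DHT it stood at 23.3, 28.0 and 68.2. Each ORX library held 1 C7 read, the controls 3, 4 and 0, and the ORX+DHT libraries 23, 29 and 69. Every ORX+DHT library was thus above every control and ORX library, and ORX+DHT replicate 3 was above the other two. Groups were apart in this way, with the ORX+DHT libraries higher, for 10.4% of 8770 genes against ORX and 6.86% of 8595 genes against control. These levels chose the gene, so they are given as a description with no test. Over summed reads, ORX+DHT stood 45.2-fold above ORX (exact 95% interval 15.1 to 222, 121 reads against 3) and 15.5-fold above control (7.28 to 39.3, 121 against 7). ORX stood at 0.342 times control (0.0570 to 1.497). Such intervals and limits cover counting error alone and not the spread between libraries, and reads that carry no molecular identifier can be copies of 1 molecule.

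On the log2(normalised count + 1) scale, where low genes appear to change less than they do, C7 differed by 4.32 (SE 0.42) between ORX+DHT and ORX and by 3.63 (SE 0.63) between ORX+DHT and control. It was the most positive difference among 8770 and 8595 genes in these comparisons, ahead of Slc30a2 (3.13), a zinc transporter, and Inmt (1.97), a methyltransferase. The choice of C7 by its ORX+DHT level favours such a rank, which is a description only. C7 also passed the minimum mean of 10 only through its ORX+DHT libraries. The size depends on the pseudocount, since C7 was almost absent from ORX libraries. With a pseudocount of 0.1 or 10 the difference from ORX was 5.18 or 2.15, and that from control 4.89 or 1.88. Without ORX+DHT replicate 3 the difference from ORX was 3.86. Without control replicate 3, the control with no C7 read, the difference from control was 2.85. C7 had a mean of 1.81 normalised counts in the control and ORX table, below the minimum of 10, and was not fitted there.

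**Figure D1:**
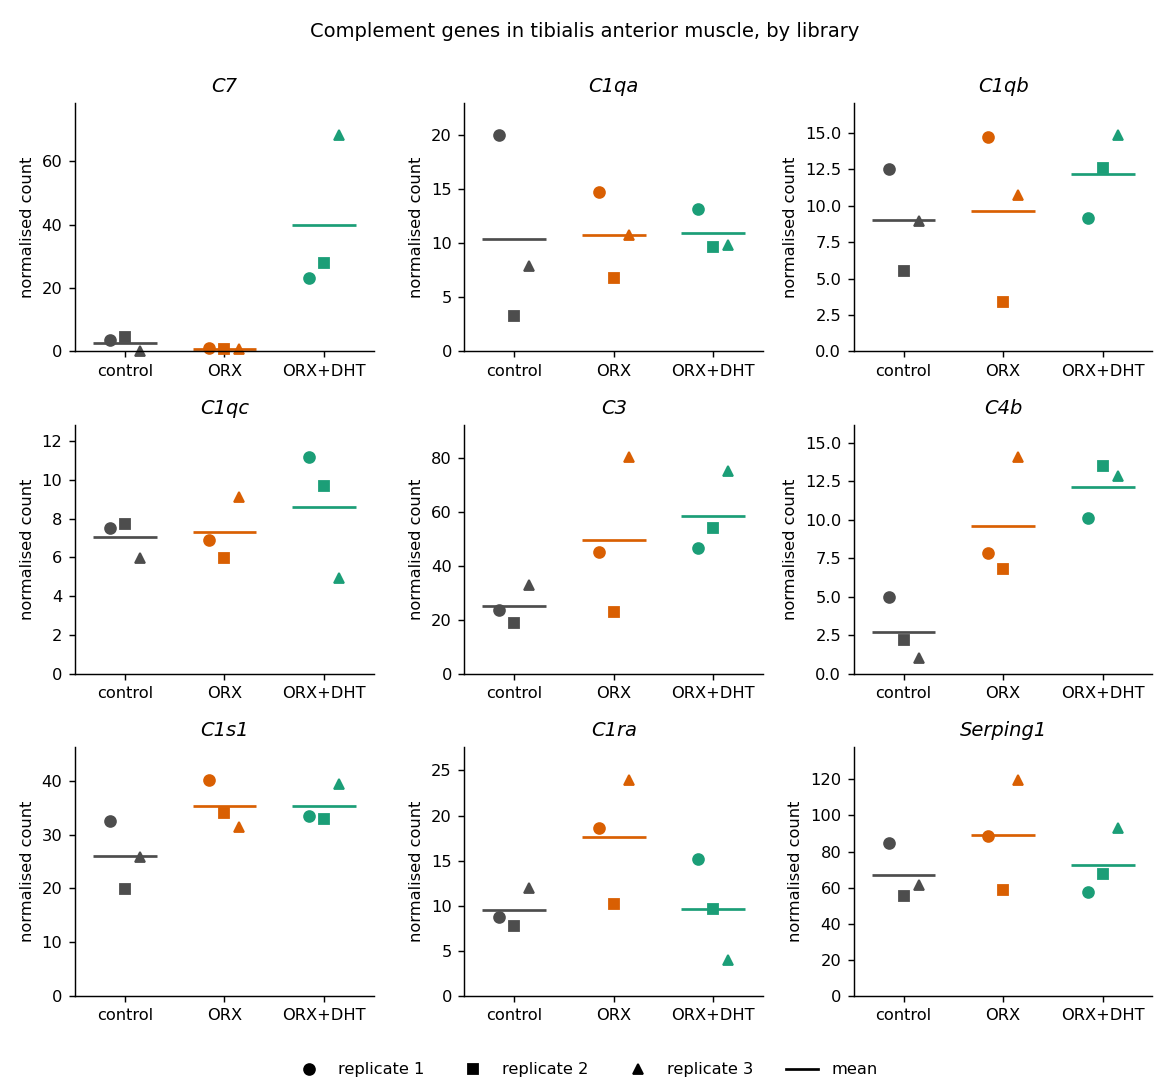
Normalised counts (vertical axes, each from 0) of 9 complement genes in control, ORX and ORX+DHT muscle. Each symbol is 1 library, its shape gives the replicate and lines are group means. C7 lies at 23.3 to 68.2 in ORX+DHT and at 4.42 or less elsewhere, while most other genes overlap between groups.

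Beside the other 8 complement genes, C7 held 1.89%, 3.54% and 0% of the reads of all 9 in control replicates 1, 2 and 3. For the 0 of 157 reads, the limit set by 3 counts is a share of 1.91%, and the upper end of the exact binomial 95% interval is 2.32%. In ORX the share was 0.413%, 0.568% and 0.275%. In ORX+DHT it was 10.6% (exact binomial 95% interval 6.84% to 15.5%), 11.8% (8.04% to 16.5%) and 21.2% (16.9% to 26.0%). The other 8 genes together stood at 195, 121 and 156 normalised counts in control, 237, 149 and 300 in ORX, and 197, 210 and 254 in ORX+DHT. These sums overlapped between ORX and each other group, while the lowest ORX+DHT sum (197) was just above the highest control sum (195).

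**Figure D2:**
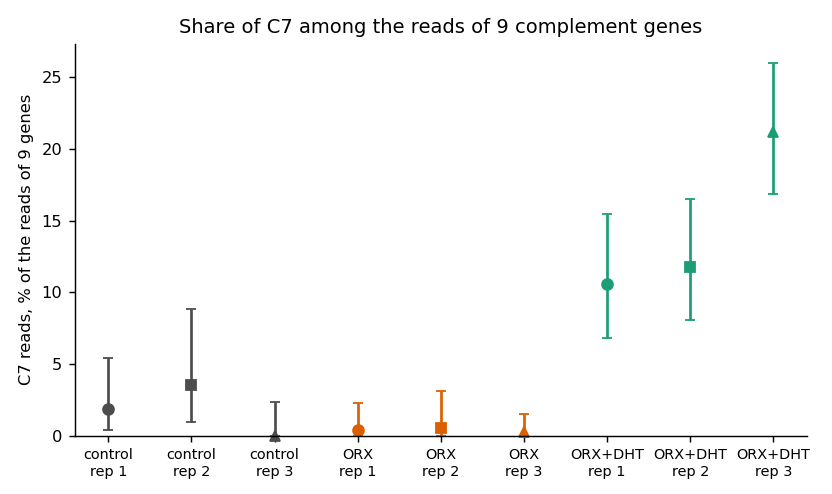
C7 reads as a percentage of the reads of the 9 complement genes (vertical axis) in each library (horizontal axis), with exact binomial 95% intervals. The 3 ORX+DHT libraries lie at 10.6% to 21.2% and the other 6 at 3.54% or less.

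The genes of the C1q chains were low, with overlapping values in all groups. C1qa stood at 20.0, 3.32 and 7.95 in control, 14.7, 6.82 and 10.8 in ORX, and 13.2, 9.67 and 9.88 in ORX+DHT. The widest spread was among the controls, with replicate 1 the highest of all 9 libraries and replicate 2 the lowest. C1qb stood at 12.5, 5.53 and 8.94 in control, 14.7, 3.41 and 10.8 in ORX, and 9.12, 12.6 and 14.8 in ORX+DHT. C1qc stood at 7.49, 7.74 and 5.96 in control, 6.87, 5.97 and 9.10 in ORX, and 11.2, 9.67 and 4.94 in ORX+DHT. All groups overlapped for each of the 3 genes. In ORX+DHT against ORX the summed reads gave ratios of 1.03 (0.621 to 1.70) for C1qa, 1.30 (0.786 to 2.15) for C1qb and 1.17 (0.647 to 2.10) for C1qc. At 25 to 37 reads per gene and group, a difference within these intervals could not be told from counting error. The intervals leave out the spread between libraries, so some larger differences may also have gone undetected.

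Of the proteases and their inhibitor, none passed the test in any comparison. C1s1, for the protease C1s, stood at 32.5, 19.9 and 25.8 in control, 40.2, 34.1 and 31.4 in ORX, and 33.4, 32.9 and 39.5 in ORX+DHT. Orchiectomised groups had means of 35.3 (SD 4.52, n = 3) without and 35.3 (SD 3.69, n = 3) with the androgen. C1ra, for the protease C1r, stood at 8.74, 7.74 and 11.9 in control, 18.7, 10.2 and 24.0 in ORX, and 15.2, 9.67 and 3.95 in ORX+DHT. In the last group C1ra and C1qc had the reverse of the library order of C7, while C1qb, C3 and Serping1 had the same order as C7. The log2 difference of C1ra between ORX+DHT and ORX was -0.90 (SE 0.41), with a limma adjusted p of 0.324 and overlapping groups. Leaving out 1 library moved it between -0.43, without ORX+DHT replicate 3, and -1.29, without ORX+DHT replicate 1. Serping1, for the C1 inhibitor, stood at 84.9, 55.3 and 61.6 in control, 88.3, 58.8 and 120 in ORX, and 57.8, 67.7 and 92.9 in ORX+DHT. All 3 groups overlapped, and its log2 difference between ORX+DHT and control was 0.11 (SE 0.23, limma adjusted p 0.915).

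C4b and C3, the components cleaved after C1, had their lowest group mean in control muscle. So did the other genes here except C7, but some by small gaps, such as C1ra (9.47 in control, 9.61 in ORX+DHT). On the log2 scale C1qb was lower in ORX than in control (-0.035), and C1ra lower in ORX+DHT than in control (-0.12). How many of all genes had their lowest mean in control was not counted. Neither C4b nor C3 passed the test in any comparison. C4b stood at 4.99, 2.21 and 0.993 in control, 7.85, 6.82 and 14.1 in ORX, and 10.1, 13.5 and 12.9 in ORX+DHT. Every orchiectomised library was above every control library, whether or not the androgen was given. Among genes tested, 6.28% had every ORX library above every control, and 6.86% had every ORX+DHT library above every control. C4b was not among the genes of these shares, since its mean was below 10 in both comparisons with control. It was tested there only without a filter on low values. That gave log2 differences of 1.59 (limma adjusted p 0.522) for ORX and 1.96 (limma adjusted p 0.647) for ORX+DHT against control. These 2 comparisons share the controls, which held 7 C4b reads in all, against 33 in ORX and 37 in ORX+DHT.

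C3 stood at 23.7, 18.8 and 32.8 in control, 45.2, 23.0 and 80.2 in ORX, and 46.6, 54.1 and 75.1 in ORX+DHT. ORX+DHT libraries were all above the controls, while ORX replicate 2 lay among the controls. The log2 difference between ORX+DHT and control was 1.20 (SE 0.26) with an unadjusted limma p of 0.000663, but an adjusted p of 0.330 over 8595 genes. Without control replicate 1 the limma adjusted p was 0.0429, and over all alternatives it ran from 0.0429 to 0.935. The difference between ORX and control was 0.81 (SE 0.38, limma adjusted p 0.695), with 0.39 without ORX replicate 3 and 1.26 without ORX replicate 2. Between ORX+DHT and ORX it was 0.38 (SE 0.30, limma adjusted p 0.638).

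Of the 8 genes beside C7, 5 passed the minimum mean in ORX against control and 0 were called by limma at an adjusted p under 0.05, where 0.0579% of all 8631 genes tested were. At an unadjusted p under 0.05 there were 0, against 7.21% of all genes, and edgeR and DESeq2 called 0 each. In ORX+DHT against ORX, 7 were tested and 0 called, against 4.08% of all 8770 genes, with 1 (C1ra) at an unadjusted p under 0.05, against 14.3%, and 0 called by edgeR or DESeq2. In ORX+DHT against control, 5 were tested and 0 called, against 0.0349% of all 8595 genes, with 1 (C3) at an unadjusted p under 0.05, against 6.48%, and 0 by either count test. Their median log2 difference was 0.44, 0.063 and 0.44 in these comparisons, beside -0.0077, 0.0062 and -0.0052 over all genes tested. Among tested genes the groups did not overlap for 0 of 5, 0 of 7 and 2 of 5 (C3 and C1s1), where 14.3%, 19.5% and 14.0% of all genes did not overlap. The first and last comparisons share the control libraries.

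**Figure D3:**
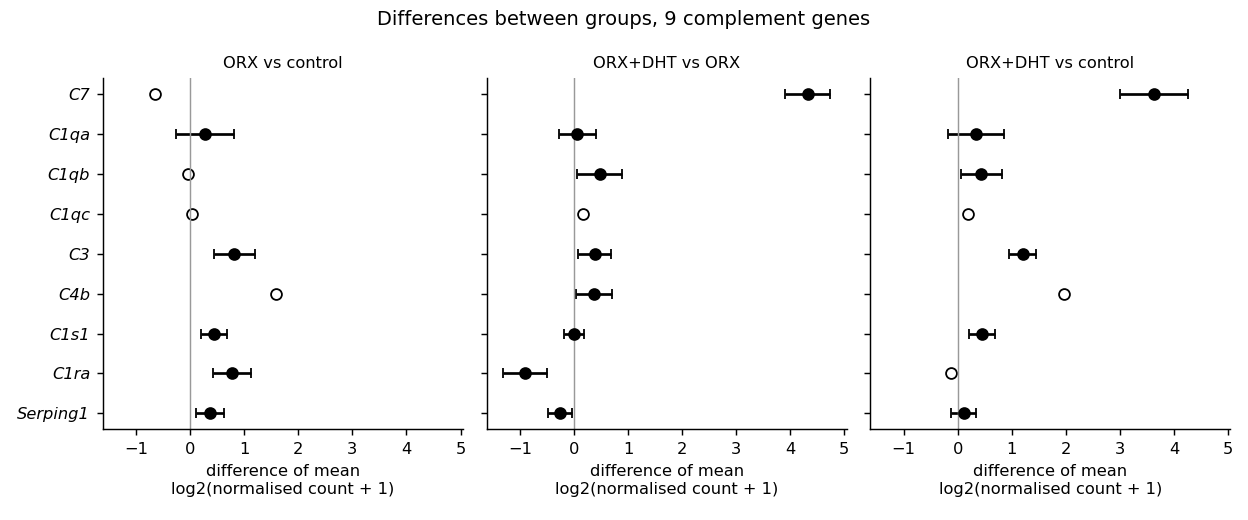
Differences of mean log2(normalised count + 1) between groups (horizontal axes) for 9 complement genes. Filled points passed the minimum mean of 10 and carry the standard error of the limma fit, open points did not pass and were not fitted. C7 lies at 4.32 and 3.63 where ORX+DHT is compared, and the other fitted genes lie between -0.90 and 1.20.

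A wider list of 49 other complement genes was examined for the rest of the pathway, of which 30 were listed in both tables. Limma called 0 of 11 tested genes in ORX against control, 0 of 11 in ORX+DHT against ORX and 0 of 10 in ORX+DHT against control. Over all genes tested the shares called were 0.0579%, 4.08% and 0.0349%. At an unadjusted p under 0.05 there were 1, 2 and 1 of the list, against 7.21%, 14.3% and 6.48% of all genes, and edgeR and DESeq2 called 0 in each. Groups did not overlap for 0 of 11, 2 of 11 and 2 of 10, against 14.3%, 19.5% and 14.0%. Of 5 terminal pathway genes, C8g was the only entry in both tables, and it was not tested, at 2.49 (SD 2.48), 4.72 (SD 0.517) and 2.98 (SD 1.04) normalised counts in control, ORX and ORX+DHT (n = 3 each). The ORX+DHT libraries of C8g (4.05, 2.90 and 1.98) were all below its ORX libraries (4.91, 5.12 and 4.14), at 2 to 6 reads each. Among genes tested, 9.13% had this order. C9 was listed in the table of ORX and ORX+DHT only. Of 10 receptor genes 8 were listed in both tables. Cd93 and C1qbp were tested, with limma adjusted p of 0.506 and 0.941 in ORX+DHT against ORX and overlapping groups in every comparison. C3ar1, C5ar1, C5ar2, Itgam, Itgax and Itgb2 held 5 to 19 reads each over all 9 libraries and were not tested. Itgam, a subunit of a leukocyte complement receptor, held 0 reads in each control and 1 or 2 in each other library, which is within the limit of 3 counts.

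Among regulators, Cd59a encodes a membrane protein that blocks assembly of the attack complex on the body's own cells. It, Cd55 and Cfd were singled out after their values were seen. It stood at 69.9, 21.0 and 37.7 in control, 33.4, 40.9 and 27.3 in ORX, and 20.3, 20.3 and 16.8 in ORX+DHT. All ORX+DHT libraries were below all others, as for 9.13% of all genes against ORX and 7.12% against control, and control replicate 1 was the highest. The log2 difference between ORX+DHT and ORX was -0.78 (SE 0.22, limma adjusted p 0.0597). It was past the threshold without ORX replicate 3 (limma adjusted p 0.0417), and over all alternatives the adjusted p ran from 0.0274 to 0.481. Cd55, for a membrane protein that speeds decay of the enzymes that cleave C3, stood at 83.7, 61.9 and 61.6 in control, 79.5, 63.1 and 75.3 in ORX, and 54.7, 60.9 and 56.3 in ORX+DHT. Its ORX+DHT libraries were also below all others, by narrow gaps, with a log2 difference from ORX of -0.33 (SE 0.15, limma adjusted p 0.297). Cfd, for complement factor D, a protease of the alternative pathway made by adipocytes, was past it in ORX against control without control replicate 1 (log2 difference 1.86, limma adjusted p 0.0256) and had 1.19 (limma adjusted p 0.676) with it. Over all alternatives its adjusted p ran from 0.0256 to 0.999.

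Levels of different genes were compared as normalised counts per kilobase of exon. Serping1 was the highest of the 9 genes in every group, at 28.9 (SD 6.71), 38.3 (SD 13.1) and 31.3 (SD 7.79) per kilobase in control, ORX and ORX+DHT (n = 3 each). C7 was at 1.02 (SD 0.890) in control, next above C4b at 0.480 (SD 0.360), and at 0.332 (SD 0.0309) in ORX, the lowest of all. In ORX+DHT it was at 14.9 (SD 9.21), second in order to Serping1. The ranges of C7 and Serping1 overlapped there, as did those of C7 and C3, the next gene below (11.4, SD 2.87). In control and ORX the range of Serping1 lay apart from that of the next gene. Most other neighbours in the order overlapped.

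**Figure D4:**
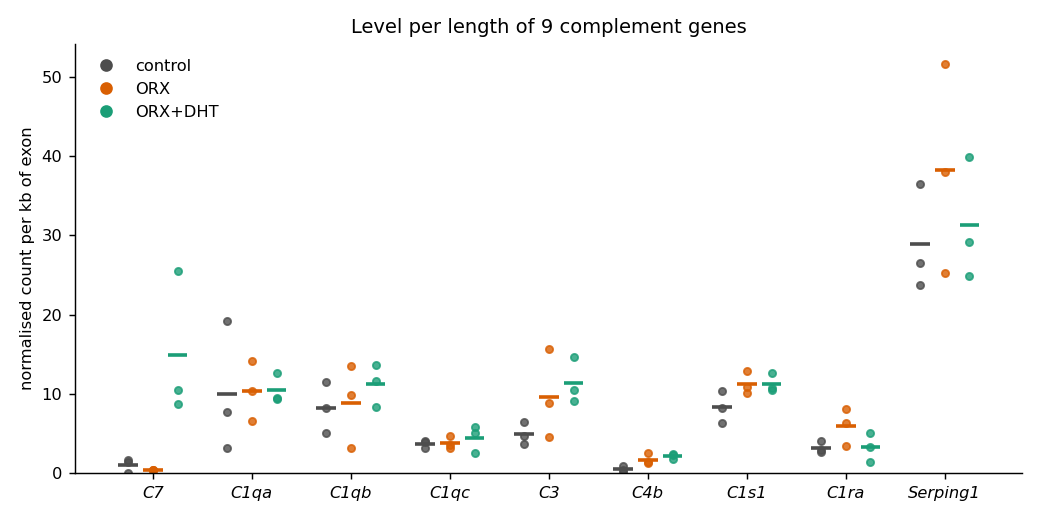
Normalised counts per kilobase of exon (vertical axis) of 9 complement genes, with 1 point per library and lines at group means. C7 moves from the lowest of the 9 in ORX (0.332) to 14.9 in ORX+DHT, while Serping1 is highest in each group.

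Libraries ranked alike for several of these genes within a group. ORX replicate 2 was the lowest of its group for 7 of the 9 genes, and control replicate 2 for 6 of 9. The same libraries were lowest in their groups in the summed markers of macrophages (68.2 against 115 and 139 in ORX, 57.5 against 87.4 and 88.7 in control) and of fibroblasts (5023 against 6096 and 6890 in ORX, 2691 against 3943 and 4733 in control). All 11 macrophage and all 13 fibroblast markers were listed. ORX replicate 2 was also the lowest ORX library for adipocyte (30.7), Schwann cell (190), erythrocyte (87.8) and satellite cell (39.2) markers. It was not the lowest for tenocyte, endothelial, mural or muscle fibre markers. Control replicate 2 was also the lowest control for tenocyte markers (335), but not for the other types just named. Between groups, fibroblast markers summed to a range of 5023 to 6890 for ORX against 3382 to 4482 for ORX+DHT. There 3 of 13 markers were called lower (1.70% of all genes were) and 0 higher (2.38% were). The C7 values in ORX+DHT were in the order of the fibroblast sums of those libraries (3382, 3937 and 4482). Sums of tenocyte, adipocyte and erythrocyte markers had this order too, and an order of 3 libraries carries little weight. The 8 endothelial markers, of which 0 were called, had sums of 1720 to 1822 in ORX+DHT. These were above all ORX (1451 to 1574) and all control libraries (1407 to 1663), as for C7. The 6 mural cell markers, with 0 called, likewise had sums of 1401 to 1422 in ORX+DHT, above all ORX (1193 to 1262) and all control libraries (1059 to 1227). Tenocyte markers summed to 316 to 392 in ORX+DHT and 474 to 804 in ORX, with 2 of 5 tested called lower and a median log2 difference of -1.28. Of 7 muscle fibre markers 2 were called higher in ORX+DHT than in ORX. The 5 adipocyte markers, of which leptin (Lep) was at 0 in at least 5 libraries, include Cfd, which makes up most of their sum in most libraries. Without Cfd they summed to 4.05, 9.67 and 24.7 in ORX+DHT replicates 1, 2 and 3, against 8.83 to 20.7 in ORX and 0 to 6.24 in control. The part of any of these cells in the values of C7 and the other genes was not tested. In bulk muscle fewer cells of a type and less RNA per cell cannot be told apart.

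Over the 9 libraries the correlation of the other complement genes with C7 on the log2 scale ran from -0.585 for C1ra to 0.540 for C4b. The libraries share their groups, and the 3 ORX+DHT libraries carry most of the variation of C7, so these values describe likeness only. Among 8624 other genes, the 5 most like C7 were Stab2 (Pearson's r 0.955), Helb (0.940), Mgat4b (0.939), Bcl2 (0.933) and Sun2 (0.929). Stab2, a scavenger receptor of sinusoidal and lymphatic endothelium, stood at 49.7, 48.3 and 57.3 in ORX+DHT, 10.2 to 13.7 in ORX and 14.9 to 21.0 in control. Bcl2, a blocker of apoptosis, stood at 18.2, 19.3 and 27.7 in ORX+DHT, 8.53 to 9.10 in ORX and 9.93 to 17.5 in control. Helb, a DNA helicase, spanned only 13.9 to 20.3 over all libraries. Like C7, all 5 were above both other groups in each ORX+DHT library, and all but Helb were highest in its replicate 3. These 5 genes were picked for likeness to C7, so such a pattern is largely built into the choice.

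**Figure D5:**
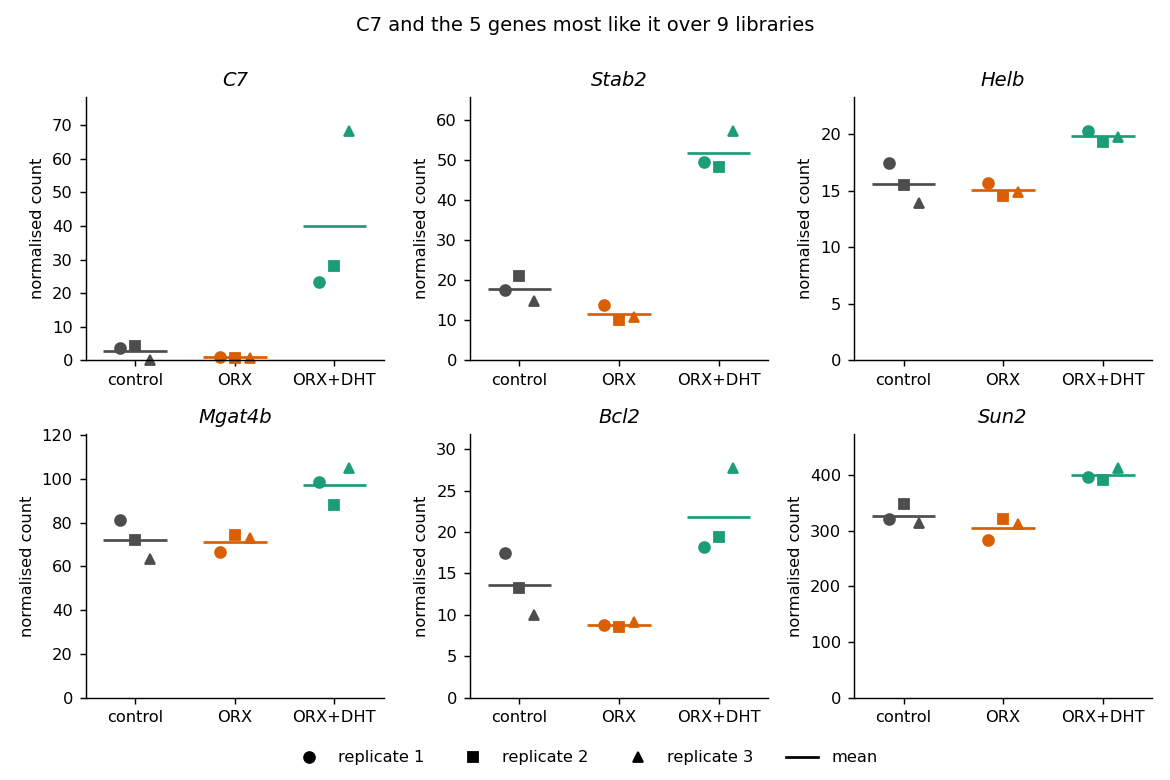
Normalised counts (vertical axes, each from 0) of C7 and of the 5 genes with the highest correlation with it, by group. Symbols are libraries and lines are means. All 6 genes are highest in ORX+DHT, with a far larger range for C7 (0 to 68.2) than for Helb (13.9 to 20.3).

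The genes most like the mean of the C1q chains were others, led by Sdccag8 (0.965), a centrosomal protein, and H2-Eb1 (0.943), an antigen-presenting class II chain of macrophages and other immune cells, followed by Gstp1 (0.925), Ppia (0.919) and Snapc5 (0.908). H2-Eb1 stood at 28.7, 8.85 and 17.9 in control, 33.4, 10.2 and 31.4 in ORX, and 21.3, 24.2 and 21.7 in ORX+DHT. Like Sdccag8, Gstp1, Ppia and Snapc5, it shared with C1qa and C1qb the low values of control replicate 2 and ORX replicate 2. All these genes were picked for likeness to the mean of the C1q chains, so such a pattern is largely built into the choice. Ppia has many processed pseudogenes, so its counts are uncertain.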

How the data were processed

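Per the labels' protocols, polyA RNA of each muscle was made into strand-keeping libraries. The submitters' processing notes name Trim Galore 0.6.7, HISAT2 2.2.1, featureCounts 2.0.1, DESeq2 1.36.0 and GRCm38, with no role or order. Both deposited tables hold a signal, the read count of each gene divided by 1 factor per library, and every row carries the biotype protein_coding. Every value was a whole multiple of 1 step per column (100% within a tolerance of 1e-06), so reads were recovered by division. Sham columns were taken as the control group, the only group not named in a column, and 0 columns were left unmapped.

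ORX against control (14596 genes) and ORX+DHT against ORX (14675) were tested within their own tables. ORX+DHT against control used the 14300 shared genes, rescaled by median-of-ratios factors. Limma 3.58.1 (R 4.3.3, eBayes with trend) was fitted on log2(value + 1) over genes with a mean of at least 10 in the 6 libraries, with Benjamini-Hochberg adjustment and calls at 0.05. C7 was fitted but not tested. edgeR 4.0.16 and DESeq2 1.42.0 were run on recovered reads. The main limma fit and the edgeR and DESeq2 fits were also tested on simulated data, and the other alternatives were not. Exact intervals came from scipy 1.17.1. Exon lengths came from GENCODE M21, which places 14293 of 14300 genes, all on the listed chromosome. Named genes were the 9 members, called, terminal or receptor genes of the wider list, and the 5 genes most correlated with C7 and with the mean of the C1q chains. Members and lists were chosen with earlier results of these data known. Alternatives were other pseudocounts, no filter, TMM, quantile normalisation, all 9 libraries in 1 fit, a replicate block and each library left out.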

Additional observations from a re-analysis of the deposited data

How the results depend on the processing

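C7 was higher in ORX+DHT in all 30 alternative fits of its 2 comparisons. Its sign could hardly change, because C7 was chosen for its ORX+DHT level and every ORX+DHT library was above every other. These fits are therefore no support for the difference. Of 250 alternative values for 17 results of the other genes, 237 kept their direction and side of the threshold, 1 passed it (C3 in ORX+DHT against control without control replicate 1) and 12 changed sign, none of them past the threshold. With TMM scaling C1s1 was at -0.0036 in ORX+DHT against ORX. The other 11 left out 1 library each. Over all such fits in which the gene passed the minimum mean of 10, the log2 differences of these genes had the following ranges. In ORX against control C1qa ran from -0.28 (without control replicate 2) to 0.54. It was below the minimum mean without control replicate 1 or without ORX replicate 1, so these fits are missing from its range. Comparing ORX+DHT with ORX, C1qa ran from -0.20 (-0.071 without ORX+DHT replicate 1) to 0.30, C1qb from -0.069 to 0.85 and C3 from -0.066 to 0.81, each lowest without ORX replicate 2. C1s1 ran from -0.078 to 0.10 there, with -0.015 and -0.075 without ORX replicates 2 and 3. Comparing ORX+DHT with control, C1qa ran from -0.21 to 0.41 and Serping1 from -0.080 (-0.019 without control replicate 2) to 0.29. The fit of C1qa without control replicate 1, its highest control, is missing there for the same reason. The cause was not tested.

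Over all genes, 5 were called between ORX and control, 358 between ORX+DHT and ORX, and 3 between ORX+DHT and control. They were 28, 226 and 13 with DESeq2 and 23, 123 and 11 with all 9 libraries in 1 fit. With no filter 16 and 21 were called in the comparisons with control, and 6 in ORX+DHT against control after quantile normalisation. Leaving out 1 library gave 1 to 51, 223 to 350 and 0 to 66, with 51 and 66 reached without control replicate 1, and 1, 223 and 0 without ORX replicate 1 or 2, ORX+DHT replicate 1 and ORX+DHT replicate 3. The other 8 members called then ranged from 0 to 0, 0 to 0 and 0 to 1, and genes of the wider list from 0 to 1, 0 to 1 and 0 to 0.

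Whether replicate numbers pair the samples cannot be told from these values. In ORX+DHT against ORX, same-numbered libraries had correlations of deviations of 0.0633, 0.0681 and 0.153, and each library correlated best with its own number. Pairs with unlike numbers ran from -0.0854 to 0.022 there. Same-numbered correlations were mostly negative in the other comparisons. With the replicate block 571 genes were called in ORX+DHT against ORX, with 1 of the wider list (Cd59a), and no other count of complement genes changed. The highest correlation of a member with C7 was 0.538 to 0.628 over 4 alternatives. Depth limits these results, since C7 and the C1q chains rest on 0 to 69 and 3 to 16 reads per library.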
